A study of Mus musculus with 11 samples.

Results

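The miR-30 family was followed through 11 small RNA libraries that trace mouse fibroblasts to pluripotency. Its 6 genes, Mir30a, Mir30b, Mir30c-1, Mir30c-2, Mir30d and Mir30e, were taken by name from a table of 3859 small RNA genes, and all 6 were found. The libraries were 1 each of the starting embryonic fibroblasts (MEF), days 1 to 8 after doxycycline, an established line of induced pluripotent stem cells (iPSC) and an embryonic stem cell (ESC) line. Every library is labelled Mbd3f/-: one copy of Mbd3 is floxed and the other deleted, in MEF as in all later stages. Mbd3 belongs to NuRD, a chromatin remodeller. Doxycycline induces Oct4, Klf4, Sox2 and Myc from a cassette that the MEF carry. Cells started in serum and LIF at low oxygen, and were later given knockout serum replacement, LIF and 2i (blockers of MEK and GSK3 signalling), on a day that the sources put differently. Both established lines were kept in 2i and LIF. The ESC column of the table carries the name V6.5, a line for which the design text lists both an Mbd3f/- and a wild-type form, and which of them was sequenced is not clear.

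With 1 library per stage, the spread between cultures is unknown. The p-values for change of a single gene over time reflect how far 9 libraries scatter about a fitted trend. Those for pairs of genes reflect how rarely another order of these libraries gives so steep a slope. The cells of days 3 to 8 and both lines were plated on irradiated human foreskin fibroblasts, so time, medium and feeders cannot be told apart. As background, the mature miR-30 sequences are conserved between mouse and human, and reads from feeder cells cannot be separated from those of the mouse cells. Fewer cells of a type and less RNA per cell cannot be told apart either.

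A microRNA (miRNA) is cut from a hairpin precursor into a mature strand that guides repression of messenger RNAs. Pairing of the target with the seed, bases 2 to 8 of the mature strand, largely sets which messages are bound. The miR-30 family is broadly expressed in differentiated tissues. Its known targets include Snai1, a transcription factor that drives the epithelial-mesenchymal transition, and Becn1, an autophagy gene. Fibroblasts pass through the reverse transition, from mesenchymal to epithelial, when they are reprogrammed.

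The mature strands are shown because the family is defined by their shared seed and its members are told apart by few bases. RefSeq (GRCm38.p6) matched 4 of the 6 genes, Mir30a, Mir30c-1, Mir30c-2 and Mir30e. Of 1738 mature miRNAs in that table, 5 entries carried the seed: the 4 below, 1 of them made by 2 genes. Mir30b and Mir30d were not matched, so their mature strands are not in this count. Capitals mark the seed, and sequences run 5′ to 3′.
mmu-miR-30a-5p: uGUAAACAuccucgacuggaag
mmu-miR-30e-5p: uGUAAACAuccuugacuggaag
mmu-miR-30c-5p: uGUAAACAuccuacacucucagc
mmu-miR-384-5p: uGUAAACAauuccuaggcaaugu
Counted from 1 at the 5′ end, miR-30a-5p and miR-30e-5p differed at 1 base, C13U. The opposite arms, miR-30a-3p and miR-30e-3p, differed at 1 base too, G18A. A single base in either arm thus separates Mir30a from Mir30e in these strands. Mir30c-1 and Mir30c-2 both yield miR-30c-5p, and only their other arms differ, at 3 positions.

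The hairpins of the miR-30c genes are shown because they contain the same mature strand in different precursors. Capitals mark both mature arms.
Mir30c-1 hairpin: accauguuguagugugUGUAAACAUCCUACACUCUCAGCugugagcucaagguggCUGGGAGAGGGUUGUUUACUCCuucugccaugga
Mir30c-2 hairpin: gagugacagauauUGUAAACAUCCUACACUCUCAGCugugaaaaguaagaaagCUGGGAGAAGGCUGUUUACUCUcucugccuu
The table gives 1 value per hairpin gene, so the arms cannot be separated.

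The 6 genes lie in 3 neighbouring pairs (GENCODE M21, GRCm38). Mir30a (ENSMUSG00000065405, chr1:23272269-23272339, plus strand) overlapped no other annotated gene. Its neighbour Mir30c-2 (ENSMUSG00000065567, chr1:23291701-23291784, plus strand) lay 19361 bases away, in an exon of the long noncoding RNA Gm27028. Mir30e (ENSMUSG00000065409, chr4:120772606-120772697, minus strand) and Mir30c-1 (ENSMUSG00000065490, chr4:120769534-120769622, minus strand) were 2983 bases apart. Both are intronic in Nfyc, which encodes a subunit of the CCAAT-binding factor NF-Y. Mir30f, a miRNA gene annotated on the opposite strand, overlaps all 92 bases of Mir30e. Whether strand was used in the counting is not stated, so reads of the 2 genes may not be separated in the value of Mir30e. Mir30d (ENSMUSG00000065437, chr15:68341208-68341289, minus strand) lay in an exon of the long noncoding RNA Gm20732, and shared 9 bases with Gm37296. Mir30b (ENSMUSG00000065476, chr15:68337415-68337510, minus strand) was 3697 bases from it and shared 16 bases with the transcript Gm26621.

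Values are FPKM, fragments per kilobase of transcript, normalised to the mapped fragments of the library. Levels of abundant genes are given in MFPKM, which is FPKM divided by 1000000. The low values implied 11540000 to 21760000 mapped reads per library, of which the table's genes took between 45.2% and 59.6%, except on days 7 and 8, with 22.8% and 27.9%. A value shared by all genes of a library moves with that share. Summed over 12 pluripotency miRNAs (those of the miR-290 cluster and the miR-302 cluster), the level was 0.0214 MFPKM in MEF, between 0.383 and 46.9 MFPKM on days 1 to 8, 21.9 MFPKM in iPSC and 18.0 MFPKM in ESC. Of these 12, 5 were listed at 0 in MEF and Mir295 in both lines. Summed over 7 fibroblast miRNAs, the level was 25.2 MFPKM in MEF, where Mir143 was listed at 0, between 11.3 and 64.7 MFPKM on days 1 to 8, 5.998 MFPKM in iPSC and 26.3 MFPKM in ESC. The fibroblast sum of ESC was thus as high as that of MEF, and its part in the ESC values below was not tested. Of other cell types, 5 muscle miRNAs summed to 0.177 MFPKM in MEF, and to at most 0.0371 MFPKM after induction, with 0.00168 MFPKM for the iPSC line and 0.00072 MFPKM for the ESC line. The sum of 7 neural miRNAs was 0.201 MFPKM in MEF, 0.907 on day 6, 0.142 on day 8, 0.142 for the iPSC line and 0.125 for the ESC line. For 6 blood miRNAs it was 0.273 MFPKM in MEF, at most 0.171 after induction, 0.778 for the iPSC line and 0.291 for the ESC line, with Mir223 and Mir511 listed at 0 in both lines. The endothelial Mir126 was at 0.0450 MFPKM in MEF, at most 0.0559 after induction, and at 0.204 and 0.232 MFPKM for the iPSC and ESC lines. In ESC the blood sum was near that of MEF, 0.291 against 0.273 MFPKM. The neural sum was high on day 6, the blood sum in iPSC and Mir126 in both lines, where Mir30e was also high as deposited. Their part in its values was not tested.

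Together the 6 genes made up a small share of all miRNA, largest on day 2. Of the summed miRNA FPKM the family held 4.15% in MEF, 4.39% on day 1 and 6.22% on day 2. It then held 4.87%, 3.94%, 3.59% and 3.86% on days 3 to 6, and 3.41% and 2.92% on days 7 and 8. In iPSC the share was 5.53% and in ESC 4.15%. Day 8 was the lowest of all libraries by this measure.

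Mir30a was the most abundant member in every library by FPKM and ranked between 6 and 16 among 1924 miRNA genes. Its level was 5.75 MFPKM in MEF, 8.59 MFPKM on day 1 and 10.8 MFPKM on day 2. It was then 6.38, 6.56, 4.80 and 4.49 MFPKM on days 3 to 6, and 1.96 and 1.92 MFPKM on days 7 and 8. As deposited, Mir30a was highest on day 2 and lowest on day 8. The day 2 value turned with the scaling: its log2 difference from MEF was 0.92 as deposited and -0.25 with size factors by the median of ratios. In iPSC it stood at 6.54 MFPKM, above MEF, and in ESC at 4.35 MFPKM, below MEF.

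As deposited, Mir30d stayed near its MEF level up to day 2 and was lower on each of days 2 to 7 than on the day before. It was at 2.66 MFPKM in MEF, 2.85 MFPKM on day 1 and 2.71 MFPKM on day 2. On days 3 to 6 it was at 2.59, 2.30, 1.79 and 1.57 MFPKM, and on days 7 and 8 at 0.764 and 0.859 MFPKM. Day 2 stood at a log2 difference of 0.03 from MEF as deposited, but at -1.14 with the median of ratios. Its level was 2.62 MFPKM in iPSC and 1.93 MFPKM in ESC.

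As deposited, Mir30e was higher on day 6 than in any other library of the course. It was at 1.27 MFPKM in MEF, 1.45 MFPKM on day 1 and 2.10 MFPKM on day 2. On days 3 to 6 it was at 2.27, 2.04, 2.04 and 2.61 MFPKM, and on days 7 and 8 at 1.12 and 1.08 MFPKM. Both pluripotent lines, with 3.48 MFPKM in iPSC and 3.18 MFPKM in ESC, were above every day of the course as deposited. The log2 difference of day 6 from MEF was 1.03 as deposited and -0.09 with the median of ratios. In that scaling iPSC stood at 0.03 and ESC at -0.05 from MEF. Within a library a scaling factor cancels, and by FPKM Mir30e was below Mir30d up to day 4 and above it in all later libraries. The place of this crossing depends on the length scaling of FPKM. By the reads that FPKM and gene length imply, Mir30e was already above Mir30d on day 2 (74969 against 69137).

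The miR-30c copies were less abundant. Mir30c-1 ranged from 0.157 MFPKM on day 7 to 0.354 MFPKM on day 3, with 0.217 MFPKM in MEF, 0.583 MFPKM in iPSC and 0.391 MFPKM in ESC. Mir30c-2 ranged from 0.186 MFPKM on day 7 to 0.439 MFPKM on day 3, with 0.260 MFPKM in MEF, 0.675 MFPKM in iPSC and 0.454 MFPKM in ESC. Once length was taken into account, the reads of Mir30c-1 were between 0.953 and 1.04 times those of Mir30c-2 in every library. Their split is uncertain because they share the mature strand, and their values cannot be read as those of 2 separate genes.

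Mir30b was the least abundant member. It ranged from 0.0491 MFPKM on day 7 to 0.131 MFPKM on day 4, with 0.0992 MFPKM in MEF, 0.133 MFPKM in iPSC and 0.129 MFPKM in ESC. Over days 1 to 6 it stayed between 0.0931 and 0.131 MFPKM, and the lines stood at the upper end of that range.

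**Figure D1:**
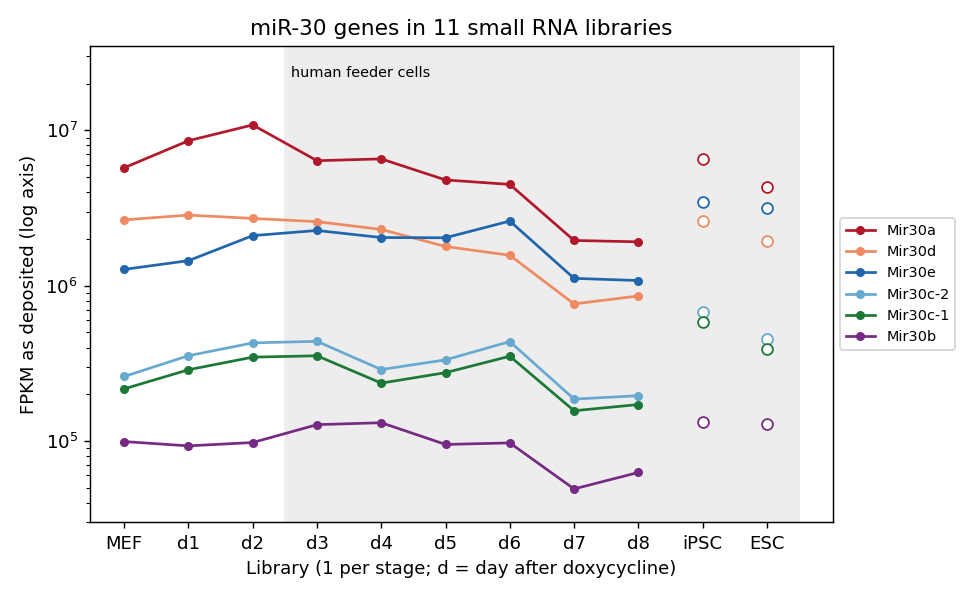
FPKM of each miR-30 gene (log axis) in the 11 libraries, 1 point per library; open circles are the iPSC and ESC lines, and grey marks libraries on human feeder cells. As deposited Mir30a was highest on day 2 at 10.8 MFPKM. By FPKM Mir30e crossed above Mir30d on day 5, and by implied reads on day 2. All 6 genes were lower on day 7 than on day 6 as deposited, as was the median of all tested transcripts, by -0.86 on the log2 scale.

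The first comparison asked whether the genes moved with time from MEF to day 8. Mir30a and Mir30d fell, and the other 4 had slopes below 0 that did not pass the test. The slope per day of log2(FPKM + 10) over 9 libraries, with MEF placed at day 0, was tested with limma (two-sided) and adjusted by Benjamini-Hochberg over 1419 transcripts. Mir30a fell by 0.26 ± 0.08 per day (SE; limma adjusted p = 0.0454) and Mir30d by 0.24 ± 0.07 (limma adjusted p = 0.0345). Of the 6 members 2 fell and 0 rose, where 10.6% of all tested transcripts fell and 12.5% rose. Slopes were -0.03 for Mir30e (limma adjusted p = 0.869), -0.07 for Mir30c-1 (0.570), -0.08 for Mir30c-2 (0.535) and -0.10 for Mir30b (0.393). The members' median slope was -0.09, beside 0.02 over all tested transcripts.

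Both calls depended on single libraries and on the scaling. In the 9 fits that left out 1 library, Mir30a kept its call in 2, those without MEF or day 4, with slopes between -0.35 and -0.22. It lost the call without day 1, 2, 3, 5, 6, 7 or 8 (limma adjusted p = 0.0854, 0.0685, 0.0568, 0.0641, 0.0583, 0.113 and 0.173). Mir30d kept its call in 5, with slopes between -0.28 and -0.20, and lost it without day 1, 5, 7 or 8 (limma adjusted p = 0.0622, 0.0514, 0.0903 and 0.119). With days 7 and 8 left out, the slopes were -0.12 for Mir30a and -0.14 for Mir30d (limma adjusted p = 0.450 and 0.298). No member was then called, where 12.8% of transcripts rose and 4.86% fell. A fit added after the data were seen used the median of ratios with the same days left out. There Mir30a fell by 0.25 per day (limma adjusted p = 0.0487), and the slope of Mir30d was -0.26 (limma adjusted p = 0.0588). Of 1419 transcripts, 115 fell and 157 rose in it. Scaled to the summed miRNA FPKM of each library, with all days kept, the slopes of Mir30a and Mir30d were -0.14 and -0.12 (limma adjusted p = 0.107 and 0.113). The median of all transcripts was 0.12 in that scaling. Again no member was called, where 22% of transcripts rose and 7.96% fell. The other 4 genes had positive slopes in that fit, and also as deposited without days 7 and 8. With the median of ratios and those days left out, only Mir30e did (0.0201). With size factors by the median of ratios Mir30a and Mir30d fell by 0.26 and 0.23 per day (limma adjusted p = 0.00595 and 0.0122), where 12.6% of transcripts fell and 16.7% rose.

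A line does not describe a rise that is followed by a fall. Mir30a (adjusted p = 0.0176) and Mir30d (adjusted p = 0.021) passed limma's F-test of day and day squared together. The other 4 did not, where 32.6% of all tested transcripts passed. A straight slope, which was called for Mir30a and Mir30d, can pass this joint test, so it does not show a curve. The coefficients of day squared were negative for all 6, between -0.06 and -0.04, and were not tested by themselves.

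**Figure D2:**
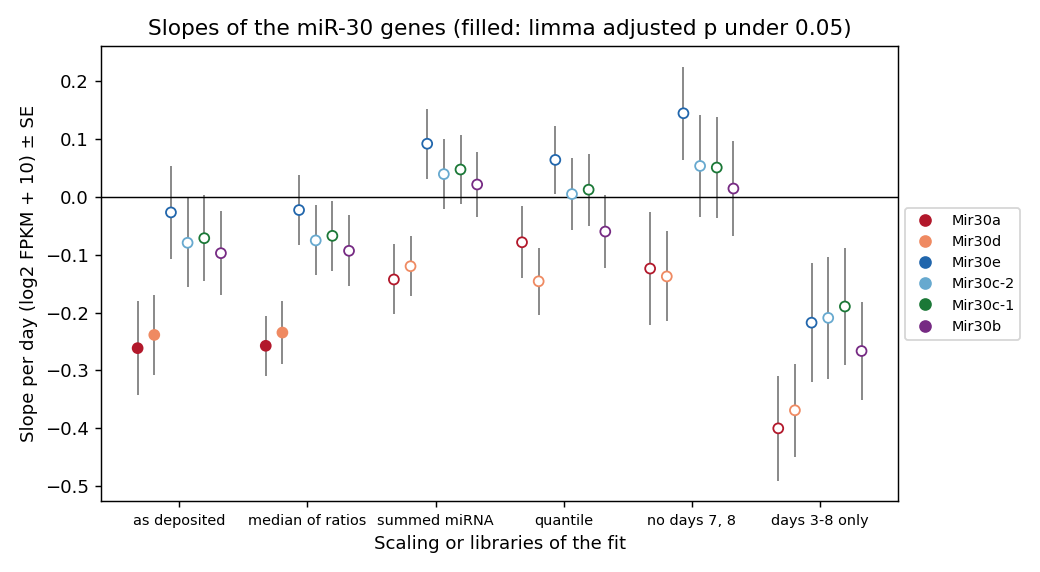
Slope per day of each miR-30 gene on the log2(FPKM + 10) scale, with its SE, under 6 scalings or choices of libraries; filled points passed limma's adjusted threshold. Mir30a and Mir30d lay below the other 4 genes in each of the 6 fits, while the level of all 6 shifted with the fit. The deposited, median of ratios and summed miRNA fits differ by a factor per library. The gaps between genes could therefore hardly differ among them.

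The next comparison asked whether members differed from each other within the same libraries, where any factor common to a library cancels. Mir30a and Mir30d fell relative to each of the other 4 genes. The log2 difference of 2 members was regressed on day for all 15 pairs. Each slope was tested with a two-sided exact permutation test over the 362880 orders of the 9 libraries, adjusted by Benjamini-Hochberg over the 15 pairs. That test takes all orders as equally likely where nothing changes with day, and a single step in time can pass it too. Of the 15 pairs 8 were called, and these were the 8 that set Mir30a or Mir30d against 1 of the other 4. None of the 7 remaining pairs was called, with 0 of them under an unadjusted 0.05 and slopes between -0.02 and 0.07 per day. With the miR-30c copies counted once, 6 of 10 pairs were called. The pairs share genes and libraries and are not independent. This division of the family was read from the pairs and has no test of its own.

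The ratio of Mir30a to Mir30e, whose mature strands differ at 1 base, showed the shift most fully. By FPKM it was 4.51 in MEF, 5.92 on day 1 and 5.16 on day 2. It was then 2.81, 3.21, 2.36 and 1.72 on days 3 to 6, and 1.75 and 1.77 on days 7 and 8. In the lines it was 1.88 in iPSC and 1.37 in ESC, against 4.51 in MEF. The ratio was above 4 in the 3 libraries without feeders and below 4 in the 8 libraries on feeders. Its slope over the course was -0.23 ± 0.04 per day on the log2 scale (SE, n = 9, exact permutation adjusted p = 0.00424).

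Mir30d also fell relative to its neighbour Mir30b, 3697 bases away on the same strand. By FPKM, Mir30d was 26.8 times Mir30b in MEF, 30.6 times on day 1 and 27.7 times on day 2. The ratio was 20.3, 17.6, 18.8 and 16.2 on days 3 to 6, and 15.5 and 13.7 on days 7 and 8. It was 19.7 in iPSC and 14.9 in ESC, against 26.8 in MEF, so both lines lay within the range of days 3 to 8. The slope was -0.14 ± 0.02 per day (SE, n = 9, exact permutation adjusted p = 0.00364). The neighbours on chromosome 1, Mir30a and Mir30c-2, differed by -0.18 ± 0.04 per day (exact permutation adjusted p = 0.00802, n = 9).

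For the intronic neighbours in Nfyc no change with time passed the test. By FPKM, Mir30e was 5.88 times Mir30c-1 in MEF, 5.04 times on day 1 and 6.06 times on day 2. The ratio was 6.41, 8.66, 7.39 and 7.42 on days 3 to 6, and 7.12 and 6.29 on days 7 and 8. It was 5.97 in iPSC and 8.13 in ESC, against 5.88 in MEF. Its slope against Mir30c-1 was 0.04 ± 0.03 per day (exact permutation adjusted p = 0.174, n = 9), which does not show that their courses were alike. Mir30a and Mir30d, on different chromosomes, differed by -0.02 ± 0.04 per day (exact permutation adjusted p = 0.617, n = 9). Here too the result does not show that the courses of the genes were alike.

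Leaving out 1 library at a time, between 7 and 9 pairs were called, and all 8 slopes stayed below 0 in each of the 9 fits. Of the 8 pairs, Mir30a against Mir30b lost its call, without day 1, 7 or 8 (exact permutation adjusted p = 0.0634, 0.0550 and 0.0807). Of the other 7 pairs, 3 gained a call in 1 fit each: Mir30c-1 against Mir30c-2 without MEF, Mir30e against Mir30c-2 without day 4 and Mir30e against Mir30b without day 8 (exact permutation adjusted p = 0.0410, 0.0371 and 0.0468). Without days 7 and 8 together 5 pairs were called, and without MEF, day 7 and day 8 there were 3. Within days 3 to 8, all on feeders, all 8 slopes were again below 0, between -0.21 and -0.10 per day, but 0 pairs were called and 3 were under an unadjusted 0.05. With 6 libraries the smallest p the test allows is 0.00278.

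**Figure D3:**
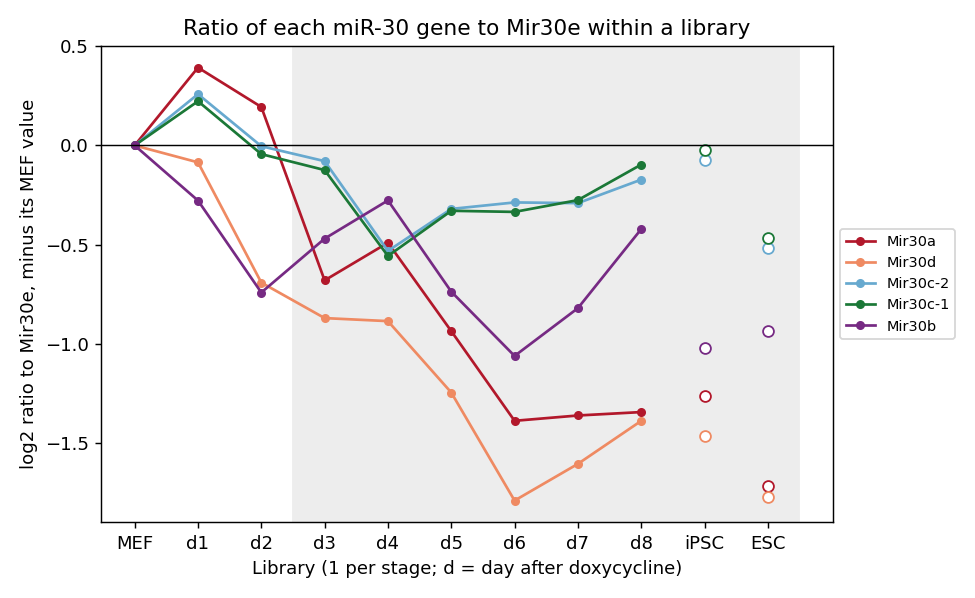
Log2 ratio of each other miR-30 gene to Mir30e within a library, set to 0 in MEF; 1 point per library, open circles are the iPSC and ESC lines, and grey marks libraries on human feeder cells. From day 5 on Mir30a and Mir30d lay below the other 3 genes in every library, and Mir30b varied between them and the miR-30c copies.

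The make-up of the family shifted accordingly. Levels of different genes were compared as reads implied by FPKM, gene length and the recovered depth, because the value of 1 read differs strongly between short transcripts. Mir30a made up 42.6% of implied miR-30 reads in MEF, 51.9% on day 2, 32.2% on day 6 and 30.6% on day 8. It made up 32.2% in iPSC and 27.7% in ESC, against 42.6% in MEF. Mir30e made up 19.9% in MEF, 21.1% on day 2, 39.3% on day 6 and 36.2% on day 8. Its share was 36.0% in iPSC and 42.5% in ESC, against 19.9% in MEF. From day 6 on, and in both lines, Mir30e held the largest share by reads, although Mir30a stayed highest by FPKM. The share of Mir30d was 29.6% in MEF and 20.6% on day 8, with 19.4% in iPSC and 18.5% in ESC. Both miR-30c copies together with Mir30b made up the remainder. These shares rest on the assumed fragment lengths and are less certain than the ratios over time.

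**Figure D4:**
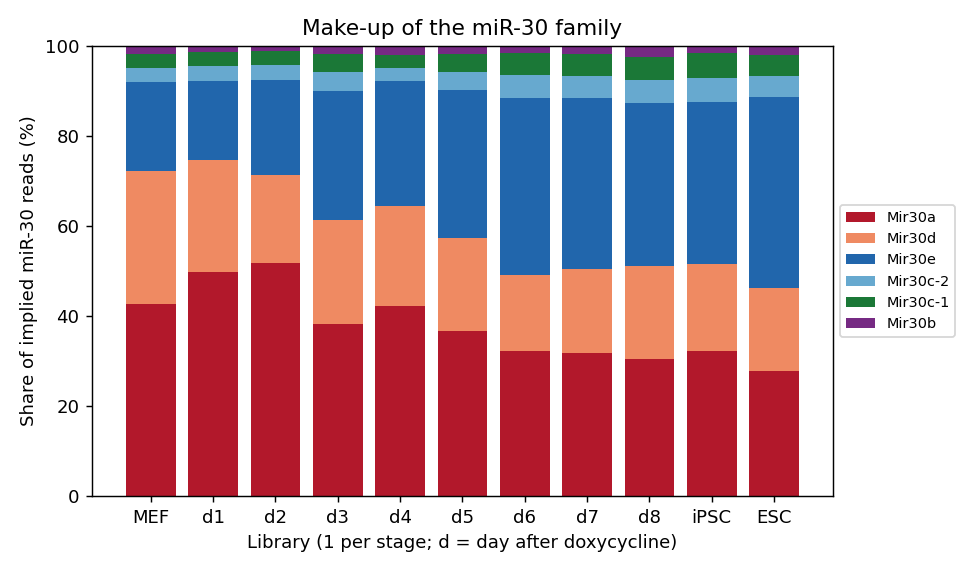
Share of implied miR-30 reads (%) held by each of the 6 genes in the 11 libraries, 1 bar per library. Mir30a held 42.6% in MEF and 27.7% in ESC, and Mir30e held 19.9% in MEF and 42.5% in ESC.

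The pluripotent lines were set against MEF without a test, since each had 1 library, and both share the MEF library. Mir30e was 2.73-fold higher in iPSC and 2.49-fold higher in ESC than in MEF. Of the 6 members it was the one at least 2-fold higher in both lines, where 42.5% of tested transcripts were. Mir30c-1 had log2 differences of 1.43 in iPSC and 0.85 in ESC, and Mir30b of 0.43 and 0.38. No member was at least 2-fold lower in both lines, where 13.7% of tested transcripts were. Mir30d had log2 differences of -0.02 in iPSC and -0.46 in ESC. As deposited, 64.8% of tested transcripts were higher in iPSC than in MEF, and 62.4% were higher in ESC. The median over all tested transcripts was 1.36 in iPSC and 0.98 in ESC on the log2 scale, a lean towards the lines. With size factors by the median of ratios, which took these medians to 0.13 and 0.00, 0 members were 2-fold higher, where 29.9% of transcripts were, and Mir30a and Mir30d were at least 2-fold lower in both lines, where 24.6% were. Scaled to the summed miRNA FPKM, Mir30e was again the one member at least 2-fold higher in both lines and none was lower, where 42.1% of transcripts were higher and 14% lower. With the median of ratios the log2 differences of Mir30a and Mir30d were -1.23 and -1.44 in iPSC and -1.77 and -1.82 in ESC. As deposited, Mir30e was the highest member and Mir30a and Mir30d the lowest in both lines, relative to MEF. The median of ratios shifts all members of a library nearly alike, so it could not change this order. After quantile normalization Mir30d and Mir30b were lowest in both lines, at -1.02 and -0.74 in ESC, with Mir30a at -0.23 there. Mir30c-2 was then highest in iPSC and Mir30e in ESC.

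Between the lines, the 6 genes stood between 0.04 and 0.59 higher in iPSC than in ESC on the log2 scale as deposited. Quantile normalization turned Mir30e to -0.33 and Mir30b to -0.03, and the median of ratios turned Mir30b to -0.01. None reached 2-fold, where 23.3% of tested transcripts were at least 2-fold higher in iPSC and 16.2% at least 2-fold lower. As deposited Mir30a had the largest difference of the 6.

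Mir384, an X-linked miRNA (chrX:105344282-105344369, minus strand) with the same seed, was rare. In MEF it was at 1546 FPKM, with 1751 FPKM a day after induction and 608 FPKM the day after that. It was between 139.8 and 564 FPKM on days 3 to 7 and 85.0 on day 8. In iPSC it was at 500.4 FPKM and in ESC at 24.6 FPKM, the worth of 1 read. Mir384 fell by 0.46 ± 0.10 per day (SE; limma adjusted p = 0.0105). Its fall lost the call without days 7 and 8 (slope -0.38, limma adjusted p = 0.136). Even in MEF it held 41.2 implied reads, against 194787 for the 6 miR-30 genes together.

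Other broadly expressed families of differentiated cells are let-7, miR-26 and miR-29. Of 18 listed genes 16 were tested, and 7 fell and 0 rose, where 10.6% of all tested transcripts fell and 12.5% rose. The 7 count gene copies separately, as with Mirlet7c-1 and Mirlet7c-2, and with Mir29b-1 and Mir29b-2. The median slope of the 16 genes was -0.18, beside 0.02 over all transcripts. Mirlet7i, of the let-7 family that restrains pluripotency-associated genes such as Lin28a, had the lowest slope, and fell by 0.43 ± 0.07 per day (limma adjusted p = 0.00274). Mir29c, of a family known to target collagen messages, had the highest, 0.03 (limma adjusted p = 0.808). Scaled to the summed miRNA FPKM, 2 fell and 0 rose, where 7.96% of transcripts fell and 22% rose. Of 10 miRNAs known to restrain the epithelial-mesenchymal transition, 4 rose and 3 fell, with a median slope of 0.47, against the same background of 12.5% and 10.6%. Scaled to the summed miRNA FPKM, 6 rose and 2 fell. Mir200b, a repressor of Zeb1 and Zeb2, had the highest slope and rose by 0.70 ± 0.11 per day (limma adjusted p = 0.00324). Mir34b, a p53 target, had the lowest and fell by 0.52 ± 0.07 (limma adjusted p = 0.0016). As deposited, no miR-30 gene was called as rising, where 12.5% of all tested transcripts rose. Mir30e, Mir30c-1, Mir30c-2 and Mir30b had positive slopes, without a call, when scaled to the summed miRNA FPKM.

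The transcripts whose course over the 11 libraries was most like the mean of the 6 genes were mmu-mir-7054, mmu-mir-8103, Mir148b, Mir194-2 and mmu-mir-6933. Their Pearson correlations, taken among 1413 transcripts, were 0.947, 0.917, 0.912, 0.906 and 0.905. These describe 11 libraries that share one scaling, so depth and the drop of days 7 and 8 enter all of them. Low in FPKM were mmu-mir-7054, mmu-mir-8103 and mmu-mir-6933, at 506, 480.5 and 192 FPKM in MEF and 171, 259 and 108 FPKM on day 8. In iPSC they stood at 2766, 1125 and 712 FPKM. Mir148b, the abundant one, stood at 334116 FPKM in MEF, with 574729 FPKM at day 2 and 257450 FPKM at day 8, and at 878447 FPKM in iPSC and 684490 FPKM in ESC. Within the family, Mir30a correlated with Mir30d at 0.952 and with Mir30e at 0.474, and Mir30e with Mir30c-1 at 0.918 (n = 11 libraries each).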

How the data were processed

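Per the labels' protocols, total RNA was made into libraries with the TruSeq small RNA kit, and small fragments were selected by size. The authors deposited 1 FPKM value per gene and library in 11 columns. CASAVA 1.8.2, Bowtie2 2, Cufflinks 2.2.1 and mm10 appear, without roles, in the submitters' processing notes. The annotation, the filter and the sharing of reads that match several loci are not stated. GENCODE M21 held 3712 of the 3859 gene IDs.

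Depth was recovered from FPKM values below 200 with a Gaussian fragment length of 200 ± 80 nt. Among 4460 such values worth 0.5 to 5.5 reads, 92.2% lay within 0.05 of a whole read. The depth had been fitted on these values, so this is no independent check. No count test was run.

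The 1419 transcripts that averaged 10 FPKM or more, 895 of them miRNAs, were analysed as log2(FPKM + 10), a scale that understates changes of low transcripts. Slopes and F-tests used limma 3.58.1 in R 4.3.3. The slope fit had 7 residual and 2.53 prior degrees of freedom. Simulated data were run through the slope test only, not through the F-test. Exact permutation tests used Python 3.11.15 and numpy 2.4.6. The threshold was an adjusted p of 0.05.

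Alternatives were the pseudocount, the filter, the scaling, the features fitted, the libraries left out and a feeder term. The members, lists and rules were chosen with earlier results of these data known. Named besides the members were other genes with their seed, the 5 transcripts most like their mean and the extremes of each list.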

Additional observations from a re-analysis of the deposited data

Results flagged for a closer look

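Mir30a stood on opposite sides of MEF in the pluripotent lines: its log2 difference from MEF was 0.19 in iPSC and -0.40 in ESC. The difference between the lines was not tested, since each had 1 library and both were set against the same MEF library. With size factors by the median of ratios both lines were below MEF (-1.23 in iPSC and -1.77 in ESC).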

How the results depend on the processing

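No paired analysis was possible because each stage had 1 library with no replicate number. The causes of the changes below were not tested.

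The slope of Mir30a was -0.26 with a pseudocount of 1 (limma adjusted p = 0.0601), -0.14 scaled to summed miRNA FPKM, -0.0786 after quantile normalization, -0.12 without days 7 and 8, -0.40 within days 3 to 8 (0.0519) and -0.31 with a feeder term (0.233), all without a call. That of Mir30d was -0.12, -0.15, -0.14, -0.37 (0.0501) and -0.33 in the last 5 of these fits, again without a call. In fits added after seeing the data, which left out days 7 and 8 and were scaled to summed miRNA FPKM, the slopes were -0.11 for Mir30a and -0.13 for Mir30d, and with the median of ratios -0.25 for Mir30a (0.0487, called), -0.26 for Mir30d (0.0588) and 0.0201 for Mir30e.

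The other 4 genes, never called, changed sign. Scaled to summed miRNA FPKM the slopes were 0.0917 (Mir30e), 0.0471 (Mir30c-1), 0.0392 (Mir30c-2) and 0.0212 (Mir30b). After quantile normalization they were 0.0638, 0.0123 and 0.0047 for Mir30e, Mir30c-1 and Mir30c-2. Without days 7 and 8 they were 0.14, 0.0505, 0.0533 and 0.0143 in the first order, and also scaled to summed miRNA 0.16, 0.0631, 0.0658 and 0.0269. Leaving out 1 library gave slopes from -0.35 to -0.22 for Mir30a, -0.28 to -0.20 for Mir30d, -0.0826 to 0.0310 for Mir30e, -0.13 to -0.04 for Mir30c-1, -0.14 to -0.04 for Mir30c-2 and -0.13 to -0.06 for Mir30b.

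Of all tested transcripts 177 rose and 150 fell. The number that rose was 312 scaled to summed miRNA FPKM, 111 of 895 in miRNA genes only, 66 within days 3 to 8 and 36 with a feeder term. The number that fell was 69 without days 7 and 8, 74 when also scaled to summed miRNA, 80 within days 3 to 8 and 15 with a feeder term. With 1 library left out, 93 to 175 rose and 97 to 170 fell.

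Of 15 pairs 8 were called, 7 to 9 with 1 library left out, 5 without days 7 and 8, 0 within days 3 to 8 and 3 without MEF, day 7 and day 8, the last 3 added after seeing the data. Some pairs not called with all 9 libraries changed sign. Without days 7 and 8, Mir30a minus Mir30d was 0.0136 and Mir30c-1 minus Mir30c-2 was -0.00273. Within days 3 to 8, Mir30e minus Mir30c-1 was -0.0280 and Mir30e minus Mir30c-2 was -0.00829. Without MEF, day 7 and day 8, Mir30c-1 minus Mir30b was -0.0106 and Mir30c-2 minus Mir30b was -0.0120. With 1 library left out, Mir30c-1 minus Mir30b ran from -0.00197 to 0.0416 and Mir30c-2 minus Mir30b from -0.0146 to 0.0392.

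Against MEF, 603 transcripts were at least 2-fold higher and 194 lower in both lines as deposited, 349 lower with the median of ratios, and 385 higher and 356 lower after quantile normalization. Of the members, 1 was higher as deposited and 0 with the median of ratios or quantile normalization, and 0 were lower as deposited and 2 with the median of ratios.

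Reads limited Mir384 most, with 1 implied read in ESC. The 6 miR-30 genes had at least 3193 implied reads in every library.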
